A study of Mus musculus with 2 samples.

Results

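The cells described here are the cardiomyocytes of the Isl1 lineage, 240 of 6272 filtered single cells from the upper body of mouse embryos at E13.5. They were chosen by their own expression: a cell that passed the filter (more than 2000 and fewer than 9000 genes detected and under 10% of its unique molecular identifiers, UMIs, from mitochondrial genes) was kept when at least 3 of 7 cardiac genes (Myh6, Myh7, Myl7, Myl3, Tnni3, Nppa and Csrp3) had 3 or more UMIs and fewer than 2 of Cdh5, Pecam1, Ptprc, Epcam and Myog were detected. The control library came from Isl1-Cre;R26R-eYFP embryos and the mutant library from Isl1-Cre;R26R-eYFP;Pik3caH1047R embryos, so that both carried the Cre driver and the eYFP reporter and the mutant also carried a Cre-dependent allele of the activating H1047R form of the PI3K catalytic subunit. Each genotype was 1 library made from 3 pooled embryos, in which eYFP-positive cells had been sorted by FACS after collagenase digestion and dead cells left out with 7-AAD. The Cre marks every descendant of an Isl1-expressing cell, not only heart cells, and the labels name the tissue as pharyngeal arch although all tissue above the liver was taken. With 1 library per genotype no test between genotypes was possible, and every interval below is a 95% interval of counting error only.

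Cardiomyocytes are striated muscle cells whose contraction rests on sarcomeres of actin, myosin and troponin. Atrial cells use the myosin light chains Myl7 and Myl4, the calcium pump regulator sarcolipin (Sln) and the natriuretic peptide Nppa, whereas ventricular cells use the light chains Myl2 and Myl3, the heavy chain Myh7 and the transcription factors Irx4 and Hey2. Pacemaker cells of the sinus node carry the channel Hcn4 and the factors Shox2, Isl1 and Tbx3, and Isl1 itself marks the second heart field progenitors that build the outflow tract, the right ventricle and much of the atria.

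Members made up 52 of 2783 filtered control cells (1.87%, 95% Clopper-Pearson interval 1.40 to 2.44) and 188 of 3489 filtered mutant cells (5.39%, 4.66 to 6.19). A lower share can mean fewer cardiomyocytes or fewer recovered by dissection, digestion and sorting, which cannot be told apart here. Few cells lay near the limit of the choice. Among filtered cells with under 2 of the exclusion genes, 2 control and 14 mutant cells had 3 or more UMIs of exactly 2 of the cardiac genes, just outside the rule, and 1 control and 3 mutant cells had exactly 3, just inside it. In control 21 members had 5 of the genes and 23 had 6, and in mutant 46 and 96. The exclusion genes removed a further 3 control and 14 mutant cells. The members held 839204 UMIs in control (median 14690 per cell, 5771 to 44974) and 3460325 in mutant (median 16438.5, 3983 to 72055). No barcode was shared between members of the libraries, and 28 barcodes were shared among the 4505 control and 5357 mutant cells deposited.

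The label was checked on cardiac genes that the choice did not use. Cardiac troponin T (Tnnt2) had 3 or more UMIs in 52 of 52 control and 187 of 188 mutant members, compared with 11.6% and 6.36% of the other filtered cells. The transcription factor Nkx2-5 was detected in 50 of 52 and 177 of 188 members, and in 2.82% and 3.21% of other cells. Its level was 337 counts per 1000000 UMIs (CPM) in control and 346 in mutant members, against 3.05 and 3.25 in other cells. Myog, a skeletal muscle factor, had at least 1 UMI in 925 other control and 630 other mutant cells. A narrower set of these, 866 control and 547 mutant cells (433 and 295 with 3 or more), held Nkx2-5 at 5.86 and 3.95 CPM. They held cardiac troponin C (Tnnc1) at 146 and 333 CPM, compared with 5874 and 4803 in members.

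A few members went against the label. In 1 control cell Myl7 was at 0 while Myog had 27 UMIs, the fast troponin Tnnt3 31 and Sln 36. In 1 mutant cell Myl7 was also at 0, with 111 Myog and 44 Sln UMIs. Both carry skeletal muscle genes and fall among the cells with high Sln. A further mutant cell held 44 Myog UMIs beside 130 of Myl7 and 105 of Myl2. In all, 14 control and 18 mutant members had at least 1 Myog UMI, as the rule allows 1 exclusion gene.

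The libraries differed in the chamber genes that the members carried. Myl2, the ventricular regulatory light chain, had 3 or more UMIs in 11 of 52 control members (21.2%, 11.1 to 34.7) and in 152 of 188 mutant members (80.9%, 74.5 to 86.2). Sln was at 3 or more UMIs in 28 of 52 control members (53.8%, 39.5 to 67.8) and in 12 of 188 mutant members (6.38%, 3.34 to 10.9). Nppa, one of the genes used to choose the cells, reached 3 UMIs in 37 control (71.2%, 56.9 to 82.9) and 39 mutant members (20.7%, 15.2 to 27.2). By the genes outside the choice, Myl2 marked most mutant members (80.9%), while Sln marked 53.8% of control members with an interval of 39.5 to 67.8. The control cells with Sln include the cell without Myl7. Nppa cannot decide the share of atrial cells, because it helped to choose the members. In cells with Xist and no Y genes (10 and 14 members) the Myl2-high shares were 40.0% and 64.3%. At the same limit of 3 UMIs the ventricular factor Irx4 was in 0 of 52 control and 34 of 188 mutant members (7 of 2731 and 14 of 3301 other cells), and Hey2 in 1 and 19 members (35 and 60 other cells). Nr2f2, an atrial factor that is also widespread outside the heart, was in 10 and 26 members and in 998 and 1322 other cells, so it did not mark members. Thinning each cell to 5000 UMIs left Myl2 at 19.2% and 78.0% and Sln at 46.2% and 3.30%, with 6 mutant members left out as too shallow.

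**Figure D1:**
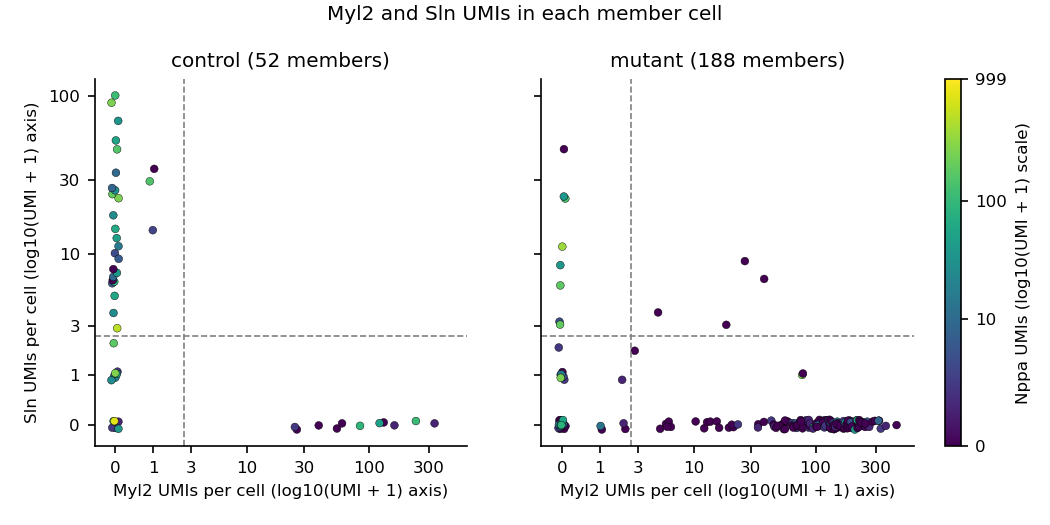
Myl2 UMIs (x axis) and Sln UMIs (y axis) in each of the 52 control and 188 mutant members, both on a log10(UMI + 1) axis, with points shifted slightly to separate them, coloured by Nppa UMIs; dashed lines mark the limit of 3 UMIs. Control cells lie along both axes with none in the upper right, and mutant cells lie mostly along the Myl2 axis, with 4 in the upper right.

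In the scatter of Myl2 against Sln, control Myl2 had a gap between 1 and 25 UMIs, while control Sln and mutant Myl2 ran through the limit of 3 UMIs without one. Members with 3 or more Myl2 and fewer than 3 Sln UMIs are called Myl2-high, and the reverse Sln-high. Control held 11 Myl2-high, 28 Sln-high, 0 with both and 13 with neither, and mutant held 148, 8, 4 and 28. The 0 of 52 control members with both genes allows a share of up to 5.77% (3 cells of 52). Every control Myl2-high cell had at least 25 Myl2 UMIs (median 85, highest 320). In the 148 mutant Myl2-high cells Myl2 ran from 3 to 470 with a median of 124. In members with neither gene Myl7, a gene of the rule, had a median of 296 UMIs in control (122 to 758) and 389 in mutant (4 to 1300), against 15 and 65.5 in Myl2-high cells and 395.5 and 754 in Sln-high cells. These ranges were cut from UMI counts and are not cell types. In GRCm38 Myl2 lies at chr5:122100951-122113472 (plus strand), Sln at chr9:53850164-53854560 (plus strand) and Hcn4 at chr9:58823412-58863175 (plus strand).

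**Figure D2:**
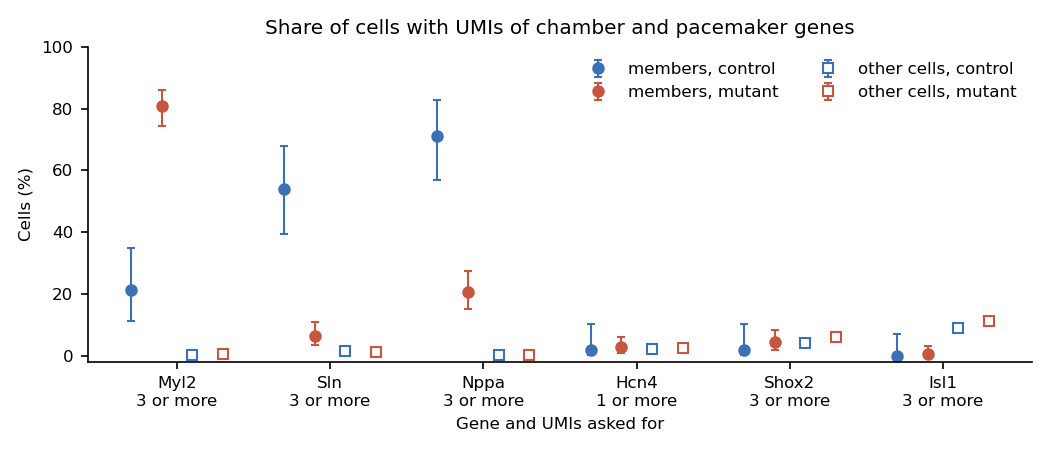
Share of cells (y axis, percent) with the stated UMIs of Myl2, Sln, Nppa, Hcn4, Shox2 and Isl1, in members (filled circles) and other filtered cells (open squares) of the control (blue) and mutant (red) library, with 95% Clopper-Pearson intervals. Myl2, Sln and Nppa differ between the libraries in members, while Hcn4, Shox2 and Isl1 in members are near or below their shares in other cells.

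Myl2 was also found outside the members, with up to 102 UMIs in control and 216 in mutant. Whether its low counts there are background was not tested. At least 1 Myl2 UMI was found in 48 of 2731 other control cells (1.76%) and in 304 of 3301 other mutant cells (9.21%), at median depths of 20615 and 16863 UMIs, and 3 or more in 1 and 16 of them. Myl2 was therefore counted from 3 UMIs in members.

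Pacemaker genes were found in few members. Hcn4 was detected in 1 of 52 control members (1.92%, 0.0487 to 10.3) and 5 of 188 mutant members (2.66%, 0.869 to 6.10), never above 2 UMIs. Other filtered cells gave 2.20% and 2.48%, with up to 3 UMIs. The 5 mutant cells all lay among the 37 mutant members above 0.3% mitochondrial UMIs, a limit set after the values were seen, and 0 among the 151 below it. Shox2, the sinus node factor, had 3 or more UMIs in 1 control member (8 UMIs) and 8 mutant members (4 to 37 UMIs), a share of 1.92% and 4.26%, beside 4.17% and 5.94% of other cells, some of which express the gene strongly (up to 50 and 40 UMIs). Of the 8 mutant members 6 lay among the 37 above 0.3% mitochondrial UMIs and 2 among the 151 below. The mutant cell with 37 Shox2 UMIs held 944 Myl7, 5 Myl2 and 4 Sln UMIs and no Hcn4. Hcn4 and Shox2 were found together in 2 mutant cells. One, with 1 Hcn4, 21 Shox2 and 2 Tbx3 UMIs, had 35 Myl2 and 24 Myl7 UMIs. The other, with 2 Hcn4 and 15 Shox2 UMIs, had 175 Myl7 UMIs and no Myl2, Sln or Nppa, and its mitochondrial share was 3.84%. Isl1, the gene whose promoter drives the Cre, was at 3 or more UMIs in 0 control members and 1 mutant member. That cell had 12 Isl1, 7 Shox2, 3 Tbx3 and 36 Myl2 UMIs. In other cells Isl1 reached 3 UMIs in 8.79% and 11.1%. Tbx3 went the other way, with at least 1 UMI in 6 of 52 control and 5 of 188 mutant members (681 of 2731 and 498 of 3301 other cells). The pacemaker list had 7 genes measured over all members. Of these 1 was higher and 3 lower in mutant by over 1.5-fold (median log2 ratio -0.40), against 13.3% and 13% of all genes. The plot of shares by gene shows these rare cells beside the chamber genes.

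The chamber lists were read between the ranges without Myl2 and Sln. They still hold Nppa, Myl7, Myl3 and Myh7, which chose the cells, and the ranges were cut from the same cells, so the values are a description. Of 15 atrial genes measured, 12 in control and 14 in mutant were lower by over 1.5-fold in Myl2-high than in Sln-high members (median log2 ratio -2.08 and -2.09). In the other direction, 1 atrial gene was higher in control and 0 in mutant. Of 16 ventricular genes, 10 and 12 were higher and 3 and 2 lower (median 1.56 and 2.16). Over all 6788 genes measured, 34.7% in control and 25.3% in mutant were higher and 20.3% and 17.9% lower, with medians of 0.12 and 0.13. Beside Myl2, the genes with the highest ratio in both libraries included Mpped2, a metallophosphodiesterase (log2 6.29 in control and 4.07 in mutant), Myh7 (6.70 and 3.13) and the calcium pump inhibitor phospholamban, Pln (3.10 and 3.69). The lowest included the gap junction gene Gja5 (-3.84 and -4.16), the lipid transfer protein gene Stard10 (-4.33 and -3.38), the caveolar coat gene Cav1 (-5.55 and -3.29) and the calcium buffer gene Casq1 (-4.25 and -3.05). In control Myl2-high members Gja5, Cav1 and Casq1 had 1 UMI each and Stard10 had 3. Mpped2 had 1 UMI in control and 2 in mutant Sln-high members. These ratios are therefore loose, as in the control interval of Cav1 (-10.9 to -3.04). Mylpf, Tnnc2 and Tceal7 were also among the lowest 8, but 64.1% or more of their UMIs in the members of each library lay in 1 cell. Mt2, Strn, Col3a1 and Ddc were the other genes among the highest 8. Col3a1, a mesenchyme marker, had 1 UMI in the Sln-high members of each library. Its Myl2-high members held 29 UMIs in control and 90 in mutant. Of these, 0 and 8 lay in cells below the mitochondrial limit named above. Other filtered cells held Col3a1 at 839 and 254 CPM, against 155 and 34.1 in Myl2-high members. Whether its ratio belongs to the Myl2 range was not tested.

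The stretches before the start of 2 genes whose level followed the chamber ranges, Nppa (log2 ratio of Myl2-high over Sln-high -1.84 in control and -4.09 in mutant) and Myh7, are shown because letters known from cardiac regulation can be read in them. Both are the 250 bases before the annotated start, 5′ to 3′ on the strand of the gene, taken from the RefSeq table of build GRCm38.p6. Capitals mark matches on either strand to the T-box letters AGGTGT, the NKX letters AAGTG, the GATA factor letters AGATAA, the TATA box letters TATAAA or the MEF2 motif. No searched motif overlaps another here.

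Nppa, chr4:148000472-148000721, plus strand: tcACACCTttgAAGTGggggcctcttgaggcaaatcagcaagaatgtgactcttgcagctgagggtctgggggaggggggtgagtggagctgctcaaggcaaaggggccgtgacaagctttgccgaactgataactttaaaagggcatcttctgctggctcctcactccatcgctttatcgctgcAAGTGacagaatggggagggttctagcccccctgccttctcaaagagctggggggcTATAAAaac
Myh7, chr14:54994627-54994876, minus strand: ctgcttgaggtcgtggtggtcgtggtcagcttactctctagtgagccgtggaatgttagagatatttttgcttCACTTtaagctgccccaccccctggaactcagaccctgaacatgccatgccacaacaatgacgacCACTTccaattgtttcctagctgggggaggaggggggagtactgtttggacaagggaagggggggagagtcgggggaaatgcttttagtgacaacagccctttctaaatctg

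The Nppa stretch held a T-box match that begins 248 bases before the start, NKX matches at 239 and 65 bases and a TATA match at 9 bases. The Myh7 stretch held NKX matches at 177 and 112 bases. Over all 32851 promoters of the table, 11.8% held the T-box letters, 40.7% the NKX letters, 9.99% the GATA letters, 12.4% the TATA letters and 1052 promoters the MEF2 motif. Counted by gene, the T-box letters stood in 4 of 17 atrial and 1 of 18 ventricular genes (13.6% of all genes in the table), the NKX letters in 6 and 7 (44.3%), the GATA letters in 1 and 5 (11.4%), the TATA letters in 2 and 8 (14.3%) and the MEF2 motif in 0 and 2 (3.70%). A match is a description of letters and says nothing of binding.

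Most members held very few mitochondrial transcripts. The median share of UMIs from mitochondrial genes was 0.0531% in members of both libraries, against 1.57% in other control and 1.47% in other mutant cells. The limit of 0.3% held 46 of 52 control members (88.5%) and 151 of 188 mutant members (80.3%), and 41 of 2731 and 67 of 3301 other cells. Members made up 46 of the 87 control cells under this limit, and 151 of the 218 mutant cells. Nuclear genes for mitochondrial proteins were not low. Atp5b, a subunit of ATP synthase, was at 3187 and 3188 CPM in control and mutant members, and at 945 and 952 in other cells.

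**Figure D3:**
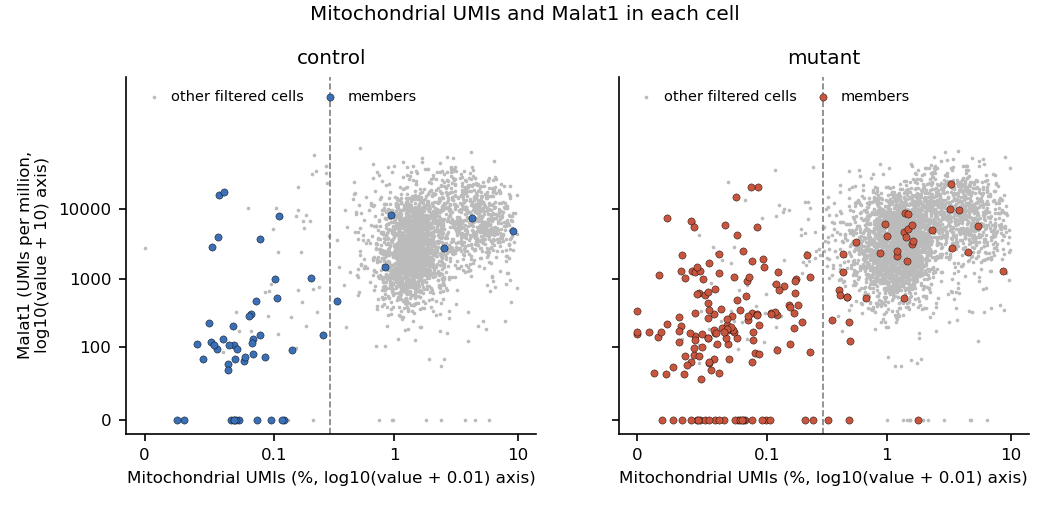
Mitochondrial UMIs (x axis, percent, log10(value + 0.01) axis) and the nuclear RNA Malat1 (y axis, CPM, log10(value + 10) axis) in each member (coloured) and each other filtered cell (grey), by library; the dashed line marks 0.3% mitochondrial UMIs. Most members lie left of the line with Malat1 below that of other cells, and the members right of it lie among the other cells.

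RNAs that stay in the nucleus were low in the same cells, as the plot of mitochondrial share against Malat1 shows. Malat1 was at 1580 CPM in control and 1587 in mutant members, and at 4247 and 4637 in other cells. Within members it was 877 and 960 CPM in cells under 0.3% mitochondrial UMIs, and 4554 and 3457 in the other members. The median cell under 0.3% held 2 Malat1 UMIs in control and 3 in mutant, and 8 of 46 and 34 of 151 such cells held 10 or more. Xist, which coats the inactive X chromosome in females, was detected in 10 of 52 control members but in 97.7% of other control cells. Its level in the control members under 0.3% was 7.37 CPM, against 623 in the remaining 6. The imprinted nuclear RNA Meg3 had 0 UMIs in the control members under 0.3% (36 in the remaining 6), which allows up to 4.42 CPM. Mitochondrial and nuclear RNA were therefore both low beside a median depth of 13796.5 UMIs in these control members and 15868 in their mutant counterparts. Whether this reflects the cells or their handling was not tested.

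This state also limits what can be said about sex. Xist without Y genes was seen in 10 control members, Y genes without Xist in 0, and neither in 42. In mutant the numbers were 14 and 85, with 6 cells showing both and 83 neither. Other control cells were 97.0% Xist-only, while other mutant cells were 35.1% Xist-only and 53.8% Y-only. The control embryos thus gave almost no cells with Y genes, so the libraries differ in sex as well as genotype, and over all members the parts of each cannot be told apart.

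Levels in the libraries were compared over all members by summing UMIs. Of 7565 genes with at least 50 UMIs over both libraries, 1009 (13.3%) were higher in mutant by over 1.5-fold and 987 (13%) lower, with a median log2 ratio of 0.03. The 10 genes with the highest ratios and at least 100 CPM included Ddit4, an mTORC1 inhibitor induced by stress (22.6 CPM in control and 103 in mutant, log2 ratio 2.19, interval 1.52 to 2.94). Others were the brain-type creatine kinase Ckb (191 and 634 CPM, 1.73), the mitochondrial protein gene Higd1a (205 and 646, 1.66), Tpm4, Tagln, Cited1 and Myl2 (1492 and 5534, 1.89). Cited1 was at 2.05 in Myl2-high members but turned to -2.43 in Sln-high members (211 control and 20 mutant UMIs). In members with Myl7 and fewer than 3 Myl2 UMIs it was at -0.26. Hbb-bs, Hbb-bt and Myh3 stood highest of all, but 99.6%, 99.4% and 97.1% of their mutant UMIs were in 1 cell each.

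Among the 10 genes with the lowest ratios were Sln (859 CPM in control and 46.8 in mutant, log2 -4.20), the muscle-type creatine kinase Ckm (508 and 35.0, -3.86) and Nppa (4508 and 607, -2.89). The others were Unc5c, lowest of all at -4.49, Ryr3 (-3.64), Mt3, Nfia, Mlf1, Pam and Rbms3. Unc5c had 83.7% of its control UMIs in 1 cell, Rbms3 66.3% and Ryr3 56.0%. Ckm and Ckb moved apart: Ckm was found in 40 of 52 control and 51 of 188 mutant members, and Ckb in 46 and 180. Other cells held Ckm at 3.29 and 1.77 CPM but Ckb at 186 and 313, so the counts of cells with Ckb do not mark members. Pik3ca itself had only 11 and 48 UMIs (13.1 and 13.9 CPM), and the counting cannot separate the mutant allele.

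The chamber lists differed between the libraries in the same direction as the shares of cells. Beside the 13.3% of all genes that were higher and the 13% that were lower, 15 of 19 atrial genes were lower and 1 higher in mutant (median -1.64), and of 17 ventricular genes 12 were higher and 1 lower (median 1.35). These lists hold Nppa, Sln, Myl7, Myl2, Myl3 and Myh7, which chose the cells or the ranges. Inside Myl2-high members the medians were -0.30 and 0.11, and in cells with Xist and no Y genes -0.74 and -0.23. The set with Xist is also picked by its nuclear RNA. Calcium handling genes had a median of -0.74 over all members, with 11 of 20 lower and 0 higher. Among the rule genes, Myl7 was at 19818 CPM in control and 8855 in mutant, Tnni3 at 2212 and 1270 and Csrp3 at 2757 and 1543, while Myh6 was nearly level (2940 and 2745). Myh6 and Myh7 are neighbouring near-copies on chromosome 14, and reads shared by them could be split unevenly.

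Hypoxia-inducible (HIF) targets outside glycolysis were higher in mutant members. Of 33 measured, 23 were higher by over 1.5-fold and 1 lower, with a median of 0.92, against 13.3% and 13% of all genes and a median of 0.03. The cytokine gene Mif was at 1550 CPM in control and 3090 in mutant (log2 0.99), the mitophagy receptor gene Bnip3 at 186 and 447 (1.27) and the glucose transporter gene Slc2a1 at 45.3 and 125 (1.46). Egln3, which encodes an oxygen-sensing hydroxylase, was at 4.77 and 32.7 CPM (2.78). Vegfa was at 33.4 and 56.9 CPM (0.77, interval 0.20 to 1.40). Adm had 0 UMIs in control and 66 in mutant members, a log2 ratio of 2.42 with control set to a floor of 3 UMIs. Of 19 glycolytic enzymes 13 were higher and 0 lower (median 0.78). Ldha, lactate dehydrogenase A, was at 1552 and 3649 CPM (1.23), Pgk1 at 704 and 1524 (1.11) and the hexokinase gene Hk2 at 16.7 and 63.3 (1.92). The muscle forms Pgam2 (-0.37), Eno3 (-0.12) and Pfkm (-0.31) were not among those past 1.5-fold.

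The same lists were read between and within the ranges. In Myl2-high over Sln-high members the HIF list had a median of 1.25 in control (20 of 29 higher, 2 lower). In mutant it was 0.27 (10 higher, 4 lower), and glycolytic enzymes had 0.58 and 0.52. Over all genes in that comparison 34.7% and 25.3% were higher and 20.3% and 17.9% lower. The part of the range shares in the ratios over all members was not tested. In Myl2-high members (11 and 148 cells) 22.0% of 6060 genes were higher and 25.7% lower by over 1.5-fold. The HIF list then had a median of 0.24 (7 of 29 higher, 3 lower) and glycolytic enzymes 0.45 (5 of 19 higher, 0 lower). The counts of higher genes in these lists were thus close to the share among all genes there. Vegfa stood at -0.20. The control side of this comparison is small and mixed: 6 of its 11 cells were under 0.3% mitochondrial UMIs, compared with 122 of the 148 mutant cells. Of 16 calcium handling genes 1 was higher and 13 lower (median -1.42), and the part of this mix in that was not tested. Over all members under 0.3% the calcium handling median was -0.64 (1 of 19 higher, 10 lower), against 15.8% and 12.6% of all genes there. In the Myl2-high members under 0.3% (6 and 122 cells) their median was -0.02, over 11 genes of which 4 had 0 UMIs in a library and were set to the floor. Their summed level there was 3676 CPM in control and 1826 in mutant. In the same cells 8 of 18 HIF targets were higher and 0 lower (median 0.26), with 3 set to the floor. Of 18 glycolytic enzymes 4 were higher and 1 lower (median 0.14), against 29.1% and 15.4% of all 4366 genes. In Sln-high members (28 and 8 cells) 13.8% of 1915 genes were higher and 16.4% lower, and each side includes its cell without Myl7. There 5 of 8 HIF targets were higher and 0 lower (median 0.89), and 6 of 16 glycolytic enzymes were higher and 1 lower (0.45).

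A comparison limited to cells with few mitochondrial UMIs was made in members with fewer than 3 Myl2 UMIs, at least 1 Myl7 UMI and under 0.3% mitochondrial UMIs, 39 in control and 26 in mutant, with median depths of 14944 and 20656 UMIs. This set was defined after the values were seen. Here 9.93% of 3001 genes were higher and 7.96% lower by over 1.5-fold. Of 14 atrial genes measured 1 was higher and 6 lower (median -0.41), with Pam at -1.48. Of 29 sarcomere genes 8 were higher and 2 lower (median 0.29). The log2 ratio was -0.07 for Myl7, 0.04 for Myl4, -0.06 for Tnni3, -0.02 for Csrp3 and 0.06 for Tnnc1, of which Myl7, Tnni3 and Csrp3 belong to the rule that chose the cells. Of 11 HIF targets measured, 6 were higher and 0 lower (median 0.76), and of 16 glycolytic enzymes 8 were higher and 0 lower (median 0.60). Ddit4 had a log2 ratio of 2.26 (8 and 36 UMIs), Mif 1.04, Higd1a 1.07, Pgk1 1.05 and Ldha 0.97. Vegfa had 11 and 12 UMIs in this set and was too thinly counted to compare. Other filtered cells gave medians of 1.34 for HIF targets and 0.90 for glycolytic enzymes, with no test of the difference.

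**Figure D4:**
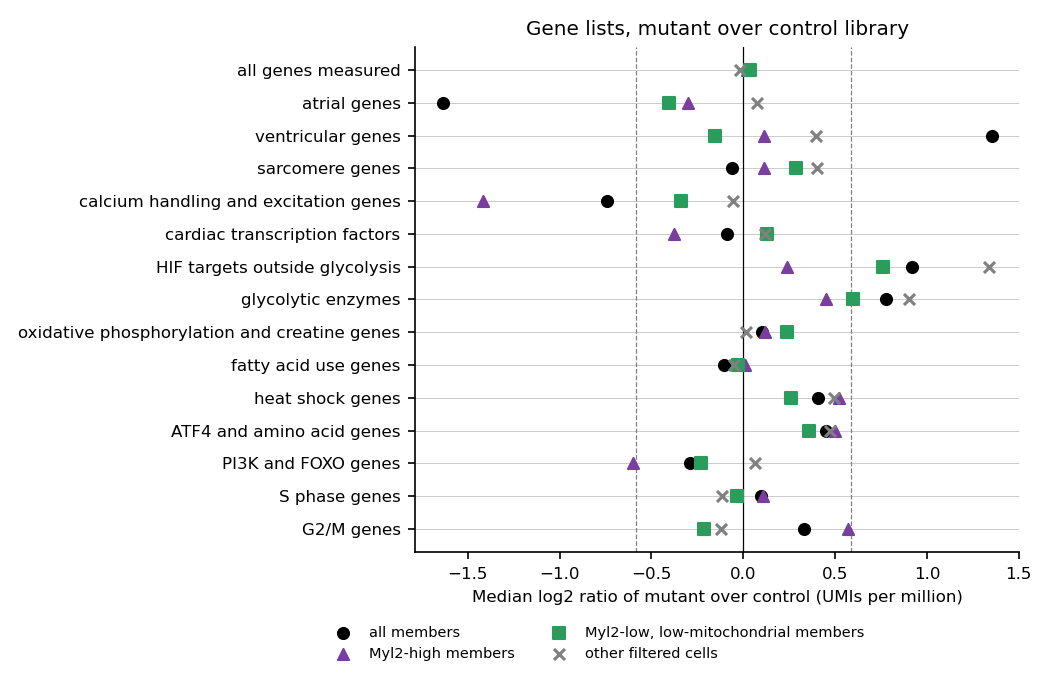
Median log2 ratio of mutant over control (x axis, from CPM) for 14 gene lists and for all genes measured, in all members, Myl2-high members, Myl2-low members under 0.3% mitochondrial UMIs and other filtered cells; dashed lines mark 1.5-fold. Atrial and ventricular medians lie beyond 1.5-fold over all members and within it in the other sets, and the HIF and glycolytic medians lie right of 0 in every set shown.

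The creatine kinase genes differed in each range, as the plot of lists does not show because their list holds mostly respiratory chain genes near 0. In the Myl2-low set Ckm had 293 UMIs in control and 14 in mutant (log2 -4.30) and Ckb 116 and 379 (1.79). In Myl2-high members the ratios were -4.33 and 1.72. The oxidative phosphorylation and creatine list had a median of 0.10 over all members, with 3 of 34 higher and 3 lower, and fatty acid genes -0.11 with 1 of 21 higher and 2 lower, Cd36 being lowest (-2.15), so that neither list exceeded the 13.3% and 13% of all genes. Nppa and Sln stayed lower in the Myl2-low set, at -1.43 and -2.99, where Nppa had 3531 control and 1232 mutant UMIs. In Sln-high members Nppa was at 4837 and 4088 CPM (-0.24). Before the 0.3% limit, 27 of 40 control and 7 of 35 mutant Myl2-low members with Myl7 had 3 or more Sln UMIs, so these sets differed in their share of cells with Sln. Myh7 (35 and 402 UMIs, 3.61) and Myl3 (278 and 1044, 2.00) were higher there, although the set holds no cell with 3 Myl2 UMIs. Tnnt2 was lower (-0.90).

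**Figure D5:**
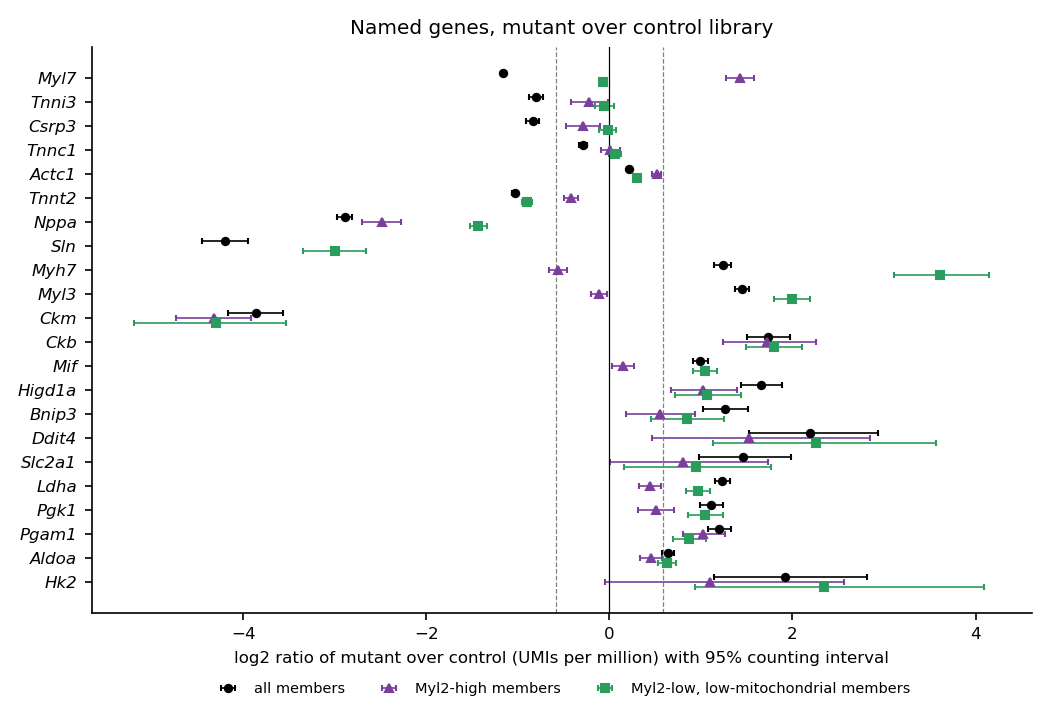
log2 ratio of mutant over control (x axis, from CPM, bars are 95% counting intervals) for 22 genes in all members, Myl2-high members and Myl2-low members under 0.3% mitochondrial UMIs. Sln is not drawn for Myl2-high members, which were chosen for fewer than 3 Sln UMIs. Ckm lies near -4 and Ckb near 1.7 in all 3 sets, while Myl7 ranges from -1.16 over all members to 1.42 in Myl2-high members.

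Stress and growth lists gave smaller values, to be read beside the 13.3% of all genes that were higher and the 13% that were lower. Of 15 heat shock genes 7 were higher and 0 lower over all members (median 0.40), led by the near-copies Hspa1a (3.01) and Hspa1b (2.80), whose reads cannot be fully separated, and by Hspb8 (1.46) and Hsp90aa1 (1.33). The ATF4 and amino acid list had 5 of 14 higher and 2 lower (median 0.45), among them the mitochondrial folate enzyme gene Mthfd2 (1.74). The ER chaperone list had 3 of 16 higher and 1 lower (0.17), and immediate early genes 4 of 17 higher and 3 lower (0.03). The immediate early median was -0.55 in Myl2-high members (1 of 15 higher, 7 lower) and 1.40 in the Myl2-low set, where 4 genes were measured (3 higher, 0 lower). PI3K and FOXO genes had 1 of 24 higher and 5 lower (-0.29), with the muscle ubiquitin ligase gene Fbxo32 at -1.01. Of 22 S phase genes 2 were higher and 0 lower (0.10), and of 26 G2/M genes 7 and 0 (0.33). In the Myl2-low set the G2/M median was -0.21, on the other side of 0. It was 0.57 in Myl2-high members (11 of 25 higher, 3 lower) and -1.25 in Sln-high members (0 of 8 higher, 6 lower). Over all genes 22.0% were higher and 25.7% lower in Myl2-high members, and 13.8% and 16.4% in Sln-high members. The compact wall list had 3 of 9 genes higher and 2 lower (median -0.06). Its imprinted growth inhibitor gene Cdkn1c was at 499 CPM in control and 1361 in mutant members (1.45).

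Markers of most other cell types were lower in members than in other filtered cells, with smooth and skeletal muscle lists above them. Smooth muscle genes had 7 of 7 detected in control (2279 CPM in sum) and 6 of 7 in mutant (4387 CPM, Myh11 at 0), with Acta2 first in both, against 770 and 856 CPM in other cells. Acta2 and Tagln are also expressed by embryonic cardiomyocytes. Skeletal muscle markers summed to 2571 and 2365 CPM (11 and 13 of 13 detected, Myf5 and Myh8 at 0 in control), led by Ttn, which the heart also uses, against 1417 and 820 in other cells. Mesenchyme markers summed to 263 and 208 CPM (10 of 10 in both), endocardial markers to 88.2 and 49.4 (5 and 7 of 7, Hapln1 and Tmem100 at 0 in control) and epithelial markers to 50.1 and 36.4 (5 and 7 of 7, Cdh1 and Krt5 at 0 in control). Macrophage markers summed to 9.53 and 27.5, neural crest and Schwann markers to 2.38 and 13.3 and liver markers to 1.19 and 24.6. Neuron markers summed to 40.5 and 195 CPM (7 and 8 of 8 detected, Elavl3 at 0 in control). Mesothelial and epicardial markers summed to 14.3 and 112 (5 and 9 of 9, with Upk3b, Msln, Tcf21 and Lrrn4 at 0 in control), against 152 and 124 in other cells. In mutant Myl2-low members with Myl7 the sum was 219.5 CPM, above other cells. Endothelial markers summed to 28.6 and 72.3 (9 and 12 of 12, with Tie1, Esam and Cldn5 at 0 in control). In mutant members Tubb3, Upk3b and Egfl7 led those lists. Their part in the gene ratios was not tested.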

How the data were processed

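The files are 10x Genomics 5′ single-cell UMI count matrices, deposited by the authors as raw counts per gene and cell (Cell Ranger 7.1.0, GRCm38/mm10); the annotation release and intron setting are not given in the sources used here. The filter follows the study's methods. Counts were summed over the cells of a set per library, divided by all UMIs of the set (CPM) and compared as log2 ratios with conditional exact binomial intervals; levels at 0 were set to 3 UMIs. Genes needed 50 UMIs over both libraries, and the text names the 10 highest and lowest ratios (100 CPM or more in a library, interval beyond 1.5-fold), the 8 highest and lowest Myl2-high over Sln-high ratios, and up to 6 members of a list. The members, ranges and gene lists were chosen with earlier results of these data known. Scrublet (scanpy 1.11.5) marked 0 control and 1 mutant cell at its own threshold and so did not work; doublets stayed in, and removing the highest scores (3 control and 16 mutant members) was an alternative. Other alternatives changed the filter, rule, depth, scaling (edgeR 4.0.16 TMM) and sets; leaving out a replicate was not possible. Gene names and coordinates were taken from the files and GENCODE vM21. Depth per library was 66935720 deposited UMIs in control and 73915525 in mutant. The erythroid marker list is not reported here.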

Additional observations from a re-analysis of the deposited data

Results flagged for a closer look

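Cells that met the marker rule but not the filter were found in both libraries, 26 of 1722 control cells outside the filter (1.51%) and 64 of 1868 mutant cells (3.43%). Most had too few genes, 23 in control and 62 in mutant, and no comparison used them.

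Calcium handling and excitation genes stood on opposite sides of 0 in the ranges, with a median log2 ratio of mutant over control of -1.42 in Myl2-high and 1.12 in Sln-high members. The difference was not tested. The control Myl2-high and the mutant Sln-high members are few (11 and 8 cells) and had the higher median mitochondrial shares (0.208% and 0.135%). The mutant Sln-high members include the cell without Myl7, which held 111 Myog UMIs and 72055 of the 226100 UMIs of that set. In Myl2-low members with Myl7, which leave it out, the median was 0.0768, with the 0.3% limit added it was -0.34 (0 of 13 higher, 4 lower, against 9.93% and 7.96% of all genes), and in Myl2-high members under 0.3% mitochondrial UMIs -0.02, over 11 genes of which 4 were set to the floor.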

How the results depend on the processing

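No paired analysis was possible because each genotype was 1 library, and no replicate could be left out. The share of members among filtered cells moved by less than its counting interval in both libraries under the 8 alternatives to the filter, the choice, doublets and depth. Restricting to Xist-only cells selects on nuclear RNA as well as sex. It gave Myl2-high shares of 40.0% in control and 64.3% in mutant. The medians were -0.74 for atrial, -0.23 for ventricular, 0.46 for glycolytic and -0.59 for natriuretic genes (0.65 over all members). The Myh7 ratio was -0.59, and 368 genes were higher and 255 lower. In Myl2-high members the medians were -0.30 (atrial), 0.11 (ventricular), 0.45 (glycolytic) and -0.41 (natriuretic), the ratios -0.56 (Myh7), 1.42 (Myl7) and -0.11 (Myl3), and 1557 genes were lower. In Myl2-high members under 0.3% mitochondrial UMIs they were 0.0676, -0.29, 0.14 and -0.59, with Myl2 at -0.47, Pam 0.0676, Myh7 -0.10, Myl7 0.51 and Myl3 -0.40. In Sln-high members the medians were -0.43 (atrial), -0.30 (ventricular), 0.45 (glycolytic), 0.20 (trabecular) and 1.12 (calcium handling), Cited1 was at -2.43, and 264 genes were higher and 314 lower. In Myl2-low members with Myl7 they were -0.38, -0.26, 0.45, 0.16 and 0.0768, with Cited1 at -0.26, 475 higher and 247 lower. Adding the 0.3% limit gave -0.41 (atrial), -0.15 (ventricular), Cited1 -0.15, 298 higher and 239 lower. The ventricular median was 1.54 as a mean over cells, 1.60 without the highest doublet scores and 1.98 in members under 0.3%. Genes past 1.5-fold numbered 560 higher and 291 lower after thinning, 1711 and 1747 at a minimum of 20 UMIs, and 341 and 207 at 200. The cause of these moves was not tested, apart from the smaller sets and minimums leaving other numbers of genes. TMM shifted log2 ratios by 0.06 and median-ratio scaling by -0.02. With 1 library per genotype, embryo, sex, sort and genotype cannot be told apart, and counting intervals understate the error. Sets, the 0.3% limit and the nuclear RNA genes were chosen after seeing the data.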

Other observations

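Sets of other genes in members are given as values. Of 13 trabecular and conduction genes measured over all members, 2 were higher and 8 lower in mutant by over 1.5-fold (median log2 ratio -1.16), against 13.3% and 13% of all genes. In Myl2-high members 2 of 7 were higher and 4 lower (-1.90), against 22.0% and 25.7% of all genes. In Sln-high members 2 of 6 were higher and 1 lower (0.20), against 13.8% and 16.4%. Of 22 cardiac transcription factor genes 3 were higher and 5 lower over all members (-0.09), with Nkx2-5 at 0.04, Tbx20 at -0.06 and Tbx5 at -1.39. Of 33 sarcomere genes 8 were higher and 7 lower (-0.06). Of 9 natriuretic and stress genes 5 were higher and 1 lower (0.65), a direction that turned in Myl2-high members (-0.41).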
